A study of Homo sapiens with 4 samples.

Results

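The genes described here are 37 genes of oxygen sensing and sugar breakdown: the oxygen-regulated alpha subunits of the hypoxia-inducible factors (HIF), the prolyl hydroxylases that control them, a set of hypoxia-responsive genes, glucose transporters, the enzymes of glycolysis and the lactate dehydrogenases. They were chosen by symbol, with the condition that a gene have at least 40 reads summed over the libraries. All 37 met it, out of 34484 gene symbols listed, and all 37 passed the filter on low counts that left 14716 genes for testing. The lowest was ANKRD37, an ankyrin-repeat gene induced by hypoxia, with 42 reads, and the next was HK2 with 98.

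RNA was sequenced from A549, an established line of human lung adenocarcinoma cells. The dex group of 2 libraries was treated with 100 nM dexamethasone, a synthetic agonist of the glucocorticoid receptor, and the etoh group of 2 libraries with its vehicle, 0.02% ethanol. Treatment lasted 3 h in both groups, and no low-oxygen treatment is labelled. The comparison asks which transcripts changed in level within 3 h of activating the receptor. A549 is 1 line, and nothing in the labels ties the replicates to independent cultures. The p-values therefore cover the spread among these 4 libraries, which could be technical.

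As background, HIF alpha subunits are made continuously and, where oxygen is present, are hydroxylated by the EGLN enzymes, recognised by the VHL protein and degraded. When oxygen is scarce the alpha subunit accumulates, pairs with ARNT and binds genes that carry the core sequence ACGTG or GCGTG. Its targets include glucose transporters and most steps of glycolysis, and they also include EGLN1, EGLN3, VEGFA and CA9. Since HIF alpha is controlled mainly as a protein, RNA levels of HIF1A or EPAS1 do not measure its activity.

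Each library held 9764159 to 11887526 aligned reads, and a count of 0 would allow a level of up to 3 reads, between 0.252 and 0.307 CPM (reads scaled to the aligned total of the library). Transcripts known to respond to the receptor followed the labels. FKBP5, a chaperone that binds the receptor complex, stood at 22.4 ± 0.359 CPM in etoh and 231 ± 1.78 CPM in dex (SD, n = 2 here and below). TSC22D3 went from 7.70 ± 0.173 to 167 ± 9.11 CPM and the clock gene PER1 from 5.18 ± 0.0649 to 75.1 ± 0.902 CPM. All 12 epithelial and A549 markers had reads, with a sum of 24829 to 25403 CPM in etoh and 25531 to 27160 CPM in dex. Most of that was ALDH1A1, at 17149 ± 790 CPM in etoh and 15340 ± 351 CPM in dex. The markers were not steady: in the test described below 4 of the 12 were higher in dex and 1 lower, against 7.12% and 4.34% of all genes tested. KRT8 went from 1728 ± 95.3 to 3486 ± 452 CPM and CLDN1 from 98.3 ± 0.673 to 53.5 ± 3.45 CPM. Other cell types were at low levels: the sum was 25.2 to 29.02 CPM in etoh and 30.8 to 41.6 CPM in dex for alveolar type II markers (8 of 10 with reads, SFTPA1 and SFTPA2 at 0). It was 17.5 to 20.2 and 20.6 to 26.8 CPM for fibroblast markers (8 of 9 with reads, COL1A2 at 0). Leukocyte markers summed to 6.25 to 6.65 and 6.64 to 8.44 CPM (6 of 8, CD3E and TYROBP at 0), and endothelial markers to 0.252 to 0.307 and 0.898 to 1.02 CPM (5 of 6, VWF at 0). The part of other cell types in the results was not tested. In bulk RNA, fewer cells of a type and less RNA per cell cannot be told apart.

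Dexamethasone raised 7 of the 37 genes and lowered 2. Higher in dex were NDRG1, CA9, VEGFA, BNIP3, the glycolytic enzymes HK1 and PFKP and the lactate dehydrogenase LDHB, and lower were VEGFC and the glucose transporter SLC2A3. NDRG1 moved most, by 3.12-fold, and the other 6 that rose did so by 1.21-fold to 1.95-fold. The 6 enzymes from GAPDH to pyruvate kinase, which carry most of the glycolytic RNA, had no member that passed the test. Calls here are an adjusted p below 0.05 in edgeR's quasi-likelihood test, two-sided and adjusted by Benjamini-Hochberg over all 14716 genes. In that test 11.5% of all genes were called, 7.12% higher and 4.34% lower. The shares for the 37 genes were 7 of 37 higher and 2 of 37 lower. Their median log2 fold change was 0.11, against 0.0018 over all genes tested. Above 0 lay 26 of the 37, against 7404 of 14716 genes tested. Some of the 26 lay close to 0 and changed sign with the processing, GAPDH at 0.0033 among them. With 1 library left out the median of the 37 ran from 0.060 to 0.20. The genes took 1.84% and 1.93% of the aligned reads in the etoh libraries and 2.00% and 1.96% in dex.

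Counted by whether the libraries overlapped, 26 of the 37 genes had groups that did not overlap, as did 53.4% of all genes tested. In 17 both dex libraries were above both etoh libraries, against 24.6% of all genes. A further 9 had both dex libraries below, against 28.8% of all genes, and 11 overlapped.

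**Figure D1:**
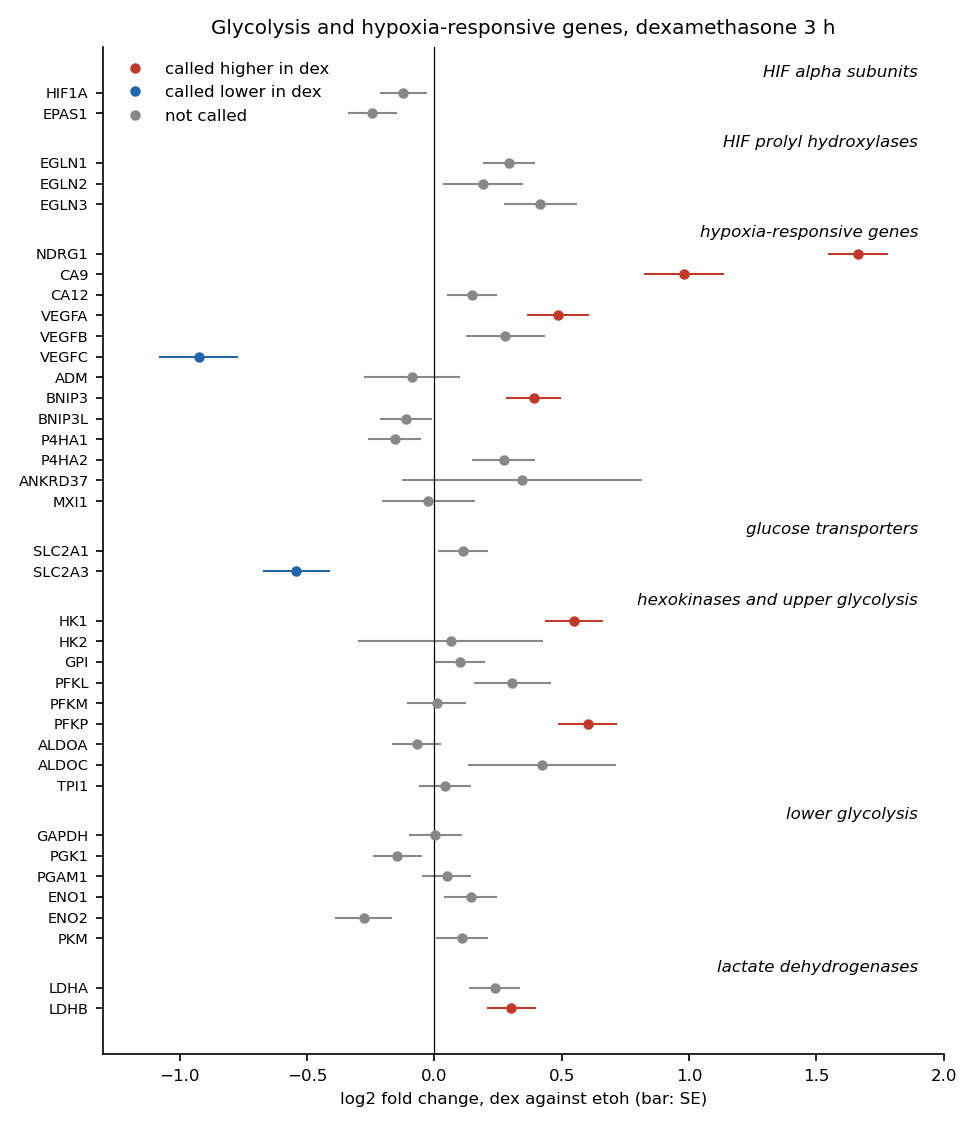
Log2 fold change of each of the 37 genes, dex against etoh, by role, with the standard error as a bar and the called genes in colour. The point for NDRG1 lies farthest to the right at 1.66, VEGFC lies farthest to the left at -0.93, and the lower glycolysis points lie between -0.28 and 0.14.

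The HIF alpha subunits did not pass the test, and their libraries lay slightly lower in dex. HIF1A had 876 and 858 CPM in etoh and 782 and 788 CPM in dex. All 5 of its tested transcripts had a fold change below 0. EPAS1, which encodes HIF-2 alpha, had 225 and 218 CPM in etoh and 181 and 187 CPM in dex. In neither gene did the groups overlap, and 28.8% of all genes tested likewise had both dex libraries below both etoh libraries. The log2 fold change was -0.12 (SE 0.09, edgeR adjusted p = 0.48) for HIF1A and -0.24 (SE 0.10, adjusted p = 0.11) for EPAS1. Per unit length HIF1A was the higher of the pair, at 445 ± 11.2 TPM (CPM corrected for transcript length) in etoh against 99.8 ± 4.19 TPM for EPAS1.

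The 3 prolyl hydroxylases, which mark HIF alpha for degradation, lay above etoh in both dex libraries without passing the test. Of all genes tested, 24.6% lay above etoh in the same way. EGLN1, the main enzyme of the family in most cells, had 248 and 269.6 CPM in etoh and 282 and 343 CPM in dex, with the second dex library standing above the other 3. EGLN3, which like EGLN1 is itself induced by hypoxia, had 18.5 and 18.2 CPM in etoh and 25.3 and 22.9 CPM in dex. EGLN2 had 13.8 and 16.6 CPM in etoh and 17.2 and 17.1 CPM in dex, so that its groups came within 1 CPM of each other. The log2 fold changes were 0.29 (SE 0.10, edgeR adjusted p = 0.070) for EGLN1, 0.42 (SE 0.14, adjusted p = 0.067) for EGLN3 and 0.19 (SE 0.16, adjusted p = 0.52) for EGLN2. EGLN1 passed without dex replicate 1, at 0.42 with an adjusted p of 0.010, and with no count filter, at 0.29 with an adjusted p of 0.042. Of 50-base windows in EGLN2 transcripts, 51.2% also occurred in the readthrough gene RAB4B-EGLN2 on the same strand, so its reads are shared with that gene.

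Of the 13 other hypoxia-responsive genes, 4 rose, 1 fell and 8 did not pass. Over all genes tested, 7.12% were higher and 4.34% lower. NDRG1, a stress-response gene of the NDRG family known for induction by hypoxia and for repression by MYC, lies at 8:133237171-133302022 on GRCh38. It had 31.0 and 28.5 CPM in etoh and 97.9 and 87.9 CPM in dex. Every dex library was well above every etoh library. The means were 29.8 ± 1.78 and 92.9 ± 7.06 CPM, a log2 fold change of 1.66 (SE 0.12, edgeR adjusted p = 6.3e-10). None of its 50-base windows occurred in another listed gene. The rise was spread over its transcripts: 8 of 12 tested were called higher, against 3.57% of all transcripts tested, and all 12 had a fold change above 0. The transcript with the most reads, NDRG1-202, held 16.7% of them. Reads shared by transcripts are placed by the aligner, so the 12 are not independent.

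CA9 encodes a cell-surface carbonic anhydrase that is widely used as a marker of HIF activity, and lies at 9:35673856-35681159. Its libraries had 11.98 and 16.8 CPM in etoh and 27.7 and 28.6 CPM in dex. The dex libraries were close to each other and the etoh libraries were not, but the groups did not overlap. The log2 fold change was 0.98 (SE 0.16, edgeR adjusted p = 1.1e-04). It was 0.78 without etoh replicate 1 and 1.23 without etoh replicate 2. Of the windows in CA9, 33.0% also lie in ARHGEF39 on the opposite strand, which had 23.9 ± 1.61 CPM in etoh and 30.1 ± 0.0338 CPM in dex (log2 fold change 0.36, adjusted p = 0.087). With the reads of both genes summed the log2 fold change was 0.63 and still passed. CA12, the other cell-surface carbonic anhydrase of the list and the member of this group with the most reads, had 438 and 413 CPM in etoh and 490.1 and 439.9 CPM in dex. Its groups came close without overlapping, and its log2 fold change of 0.15 (SE 0.10, adjusted p = 0.39) did not pass.

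The VEGF genes, secreted ligands that drive the growth of blood and lymph vessels, went in different directions. VEGFA, the main hypoxia-induced ligand (6:43770184-43786487), had 31.0 and 28.8 CPM in etoh and 39.7 and 42.6 CPM in dex, and both dex libraries were higher. VEGFC, known chiefly for the growth of lymphatic vessels (4:176683538-176792727), had 21.9 and 23.8 CPM in etoh and 11.4 and 12.3 CPM in dex. Both dex libraries of VEGFC were about equally far below etoh. The log2 fold change was 0.49 for VEGFA (SE 0.12, edgeR adjusted p = 0.0099) and -0.93 for VEGFC (SE 0.15, adjusted p = 1.7e-04). VEGFB had 18.6 and 27.5 CPM in etoh and 28.1 and 27.4 CPM in dex. The first etoh library of VEGFB stood apart from the other 3 and the groups overlapped, with a log2 fold change of 0.28 (SE 0.16, adjusted p = 0.29) that became 0.57 (adjusted p = 0.024) without etoh replicate 2. VEGFA did not pass without etoh replicate 2 (0.41, adjusted p = 0.093) or with DESeq2 (0.48, adjusted p = 0.053).

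BNIP3, a mitochondrial protein that promotes mitophagy (10:131966455-131982013), had 72.4 and 71.6 CPM in etoh and 97.0 and 88.9 CPM in dex. The etoh libraries were nearly equal and both dex libraries were higher. Its log2 fold change was 0.39 (SE 0.11, edgeR adjusted p = 0.018). BNIP3 lost the call when dex replicate 1 (0.32) was left out, and likewise for etoh replicate 1 (0.41) and for etoh replicate 2 (0.36). Its relative BNIP3L, which also promotes mitophagy, had means of 126 ± 2.73 and 115 ± 0.668 CPM in etoh and dex (log2 fold change -0.11, SE 0.10, adjusted p = 0.55).

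The remaining 5 genes of the group did not pass. The subunits of the collagen prolyl hydroxylase lay on opposite sides of etoh without overlap: P4HA1 had 96.2 ± 0.935 CPM in etoh and 85.0 ± 0.512 CPM in dex, and P4HA2 had 30.0 and 35.7 CPM. Their log2 fold changes were -0.16 (edgeR adjusted p = 0.39) and 0.27 (adjusted p = 0.18). ADM, which encodes the vasodilator adrenomedullin, had 11.5 ± 2.05 and 10.6 ± 0.597 CPM. MXI1, an antagonist of MYC, had 11.9 ± 1.79 and 11.5 ± 1.22 CPM. Fold changes of ADM and MXI1 turned positive when some libraries were left out, so no direction is given for them. ANKRD37 had 0.872 and 1.10 CPM, and its SE of 0.47 on the log2 scale was the widest of the 37 genes.

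**Figure D2:**
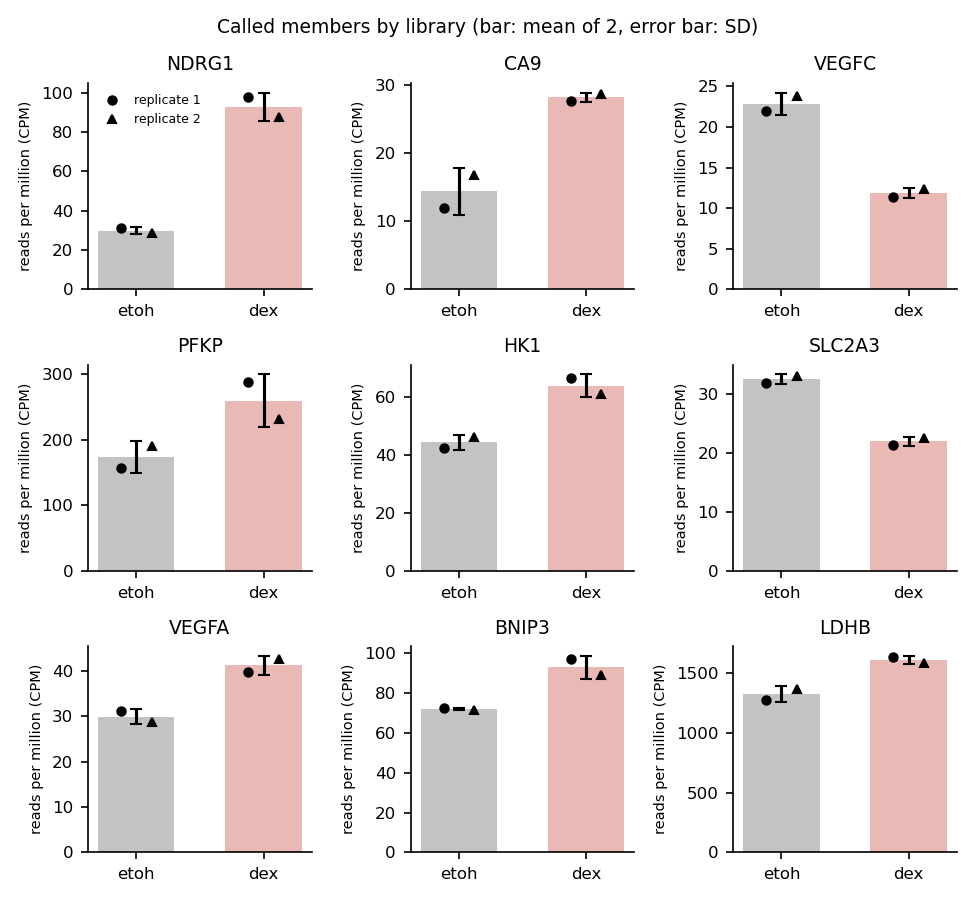
CPM in each library for the 9 genes called, with the bar at the mean of 2 libraries and the error bar at the SD, on axes that start at 0. In every panel both dex libraries lie on the same side of both etoh libraries, above for 7 genes and below for VEGFC and SLC2A3.

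The promoters of called genes are shown because the HIF core can be read in them directly. RefSeq promoter sequences on GRCh38.p14 were matched by symbol for 33 of the 37 genes, those other than NDRG1, BNIP3L, VEGFA and SLC2A3. Each sequence below is the 250 bases before the RefSeq start of the gene, 5′ to 3′ on the gene's strand. That start is 1 per gene and often differs from the outermost GENCODE start behind the gene positions given above, so the windows of CA9, BNIP3, HK1, PFKP and LDHB lie partly or wholly inside the GENCODE span of their gene and that of VEGFC lies outside it. Distances are counted from the RefSeq start. Capitals mark ACGTG or GCGTG, or their reverse complements CACGT and CACGC, and overlapping matches run together. CA9 (chr9:35673678-35673927, plus strand) has 1 match, which begins 18 bases before the RefSeq start. BNIP3 (chr10:131981924-131982173, minus strand) has 6, between 143 and 104 bases before it. VEGFC (chr4:176792923-176793172, minus strand), which fell, has 1 at 59 bases, and PFKP (chr10:3067720-3067969, plus strand), which rose, has none.
CA9: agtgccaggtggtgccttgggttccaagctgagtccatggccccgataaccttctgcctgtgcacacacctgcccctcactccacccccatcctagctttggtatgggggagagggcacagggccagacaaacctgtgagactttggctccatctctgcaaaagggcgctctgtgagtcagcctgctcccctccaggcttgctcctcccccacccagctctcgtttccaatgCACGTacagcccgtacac
BNIP3: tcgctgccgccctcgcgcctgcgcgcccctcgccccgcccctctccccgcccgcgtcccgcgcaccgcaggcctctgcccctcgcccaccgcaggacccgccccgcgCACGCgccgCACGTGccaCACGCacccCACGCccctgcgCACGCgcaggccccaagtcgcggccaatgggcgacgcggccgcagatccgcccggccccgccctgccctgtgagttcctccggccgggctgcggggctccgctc
VEGFC: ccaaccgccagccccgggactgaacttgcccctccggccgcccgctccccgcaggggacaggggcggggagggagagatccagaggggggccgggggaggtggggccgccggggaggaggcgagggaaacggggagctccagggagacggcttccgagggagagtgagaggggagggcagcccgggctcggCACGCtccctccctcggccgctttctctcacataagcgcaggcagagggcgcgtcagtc
PFKP: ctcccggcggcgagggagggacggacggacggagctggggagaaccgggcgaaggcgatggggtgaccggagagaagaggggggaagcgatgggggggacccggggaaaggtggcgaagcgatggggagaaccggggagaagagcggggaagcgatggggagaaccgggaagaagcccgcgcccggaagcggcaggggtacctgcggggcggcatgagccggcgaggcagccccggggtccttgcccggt

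The called genes HK1 and LDHB also had neither core in the 250 bases before their RefSeq start, so 3 of 6 called genes with a sequence held at least 1. Among all 33 genes 22 did (66.7%), against 43.1% of 27305 promoters of the same length and 57.7% of the 9812 that belong to tested genes. ACGTG was in 14 of the 33 (42.4%), in 18.7% of all promoters and in 23.7% of those of tested genes. GCGTG was in 12 of the 33 (36.4%), which is above its share of all promoters (31.9%) and below its share of those of tested genes (45.6%). The palindromic glucocorticoid response element, AGAACA and its reverse complement TGTTCT spaced by 3 bases, was in none of the 33 and in 0.00366% of all promoters. The looser form, GNACA and TGTNC spaced by 3 bases, was in none of the 33 and in 0.330% of all promoters. These are letter matches on either strand within 250 bases and do not show binding or its absence.

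The glucose transporters, which bring glucose into the cell, differed from each other. SLC2A1, the main basal transporter, had 318 and 288 CPM in etoh and 320.3 and 325 CPM in dex. SLC2A3, a high-affinity transporter induced by hypoxia (12:7919230-7936275), had 32.0 and 33.1 CPM in etoh and 21.5 and 22.5 CPM in dex. For SLC2A3 both dex libraries lay clearly below etoh, while for SLC2A1 the first etoh library was almost level with dex. The log2 fold change was 0.11 (SE 0.10, edgeR adjusted p = 0.54) for SLC2A1 and -0.54 (SE 0.13, adjusted p = 0.0071) for SLC2A3. Of the windows in SLC2A3, 22.3% also occur in SLC2A14, a near-identical copy with 7.77 ± 0.163 CPM in etoh and 8.89 ± 0.516 CPM in dex. With both genes summed the log2 fold change was -0.36 and no longer passed (adjusted p = 0.054).

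In upper glycolysis, from hexokinase to triosephosphate isomerase, 2 of 9 genes rose and 7 did not pass. Over all genes tested, 7.12% were higher. HK1, the hexokinase that traps glucose in the cell (10:69269984-69401884), had 42.5 and 46.3 CPM in etoh and 66.7 and 61.2 CPM in dex. PFKP, the platelet-type phosphofructokinase, which is the regulated step of the pathway (10:3066333-3137712), had 157 and 191 CPM in etoh and 288 and 232 CPM in dex. The dex libraries were higher for both genes, and for PFKP the 2 libraries of each group were far apart. The log2 fold change was 0.55 (SE 0.11, edgeR adjusted p = 0.0017) for HK1 and 0.60 (SE 0.11, adjusted p = 8.0e-04) for PFKP. The value for PFKP ran from 0.43 to 0.75 as 1 library was left out, and passed each time. For PFKP 5 of 9 tested transcripts were called higher, against 3.57% of all transcripts tested, and all 9 had a fold change above 0.

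Other isoforms of the same steps did not pass. HK2, the hexokinase most often named as a hypoxia target, had 2.87 and 1.77 CPM in etoh and 2.85 and 1.89 CPM in dex, so that the groups overlapped. PFKL, the liver-type enzyme, had means of 16.4 and 20.0 CPM (log2 fold change 0.31, SE 0.15, edgeR adjusted p = 0.23), and PFKM, the muscle type, had 39.9 and 39.5 CPM (0.01, adjusted p = 0.98). ALDOA, the aldolase with the most reads in upper glycolysis, had 622 and 601 CPM in etoh and 587 and 561 CPM in dex (log2 fold change -0.07, SE 0.09, adjusted p = 0.72). Its groups did not overlap, but the nearest libraries were about 1 SD apart. ALDOC, the brain aldolase, was at low levels, 2.79 CPM in etoh and 3.70 CPM in dex (0.42, SE 0.29, adjusted p = 0.41). GPI and TPI1, the isomerases, had log2 fold changes of 0.10 and 0.04, which turned negative without dex replicate 1, as PFKM did.

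In lower glycolysis, from GAPDH to pyruvate kinase, none of 6 genes passed, against 11.5% of all genes tested. Of the 6, 1 (ENO2) had an unadjusted p below 0.05, against 23.6% of all genes. GAPDH, often used as a reference gene, had 5549.6 and 6142 CPM in etoh and 5491 and 6047 CPM in dex. In both groups the second library was the higher, and the groups overlapped almost wholly, with a log2 fold change of 0.0034 (SE 0.10, edgeR adjusted p = 0.99) whose sign depends on the scaling. Of its windows, 14.6% lie in RP5-940J5.9, a gene listed on the opposite strand. PKM, pyruvate kinase, had 1962 and 2149 CPM in etoh and 2321 and 2039 CPM in dex, and ENO1, the main enolase, had 1281 and 1356 CPM in etoh and 1553 and 1312 CPM in dex. Their groups overlapped, and the log2 fold changes were 0.11 and 0.14. PGK1, phosphoglycerate kinase, had 811 and 744 CPM in etoh and 699.9 and 684 CPM in dex. The dex libraries of PGK1 were both lower (log2 fold change -0.15, SE 0.10, adjusted p = 0.39). Of its 3 transcripts 1, PGK1-201 with 17.7% of the reads, was called lower on its own at -0.45 (SE 0.12, adjusted p = 0.017), against 2.07% of all transcripts tested. ENO2, the neuronal enolase, had 58.7 and 63.7 CPM in etoh and 48.9 and 50.5 CPM in dex, a log2 fold change of -0.28 (SE 0.11, adjusted p = 0.12). PGAM1, phosphoglycerate mutase, had a log2 fold change of 0.05 (adjusted p = 0.82). Of the windows in PGAM1, 18.7% also occur in PGAM4 on the same strand, and with both genes summed the log2 fold change was 0.06.

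The lactate dehydrogenases interconvert pyruvate and lactate. LDHB (12:21635342-21757857) had 1279 and 1371 CPM in etoh and 1635 and 1583 CPM in dex. LDHA, the form induced by HIF, had 2589 and 2586 CPM in etoh and 3066 and 2937 CPM in dex. For both genes the dex libraries were higher than the etoh libraries. The log2 fold change was 0.30 (SE 0.10, edgeR adjusted p = 0.044) for LDHB and 0.24 (SE 0.10, adjusted p = 0.14) for LDHA. LDHB lay close to the threshold and lost the call in 8 of 14 alternatives, among them the removal of dex replicate 1 (0.27) and of either etoh library (0.27 and 0.33). LDHA passed when no count filter was used (0.23, adjusted p = 0.029). A difference between the 2 genes was not tested.

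**Figure D3:**
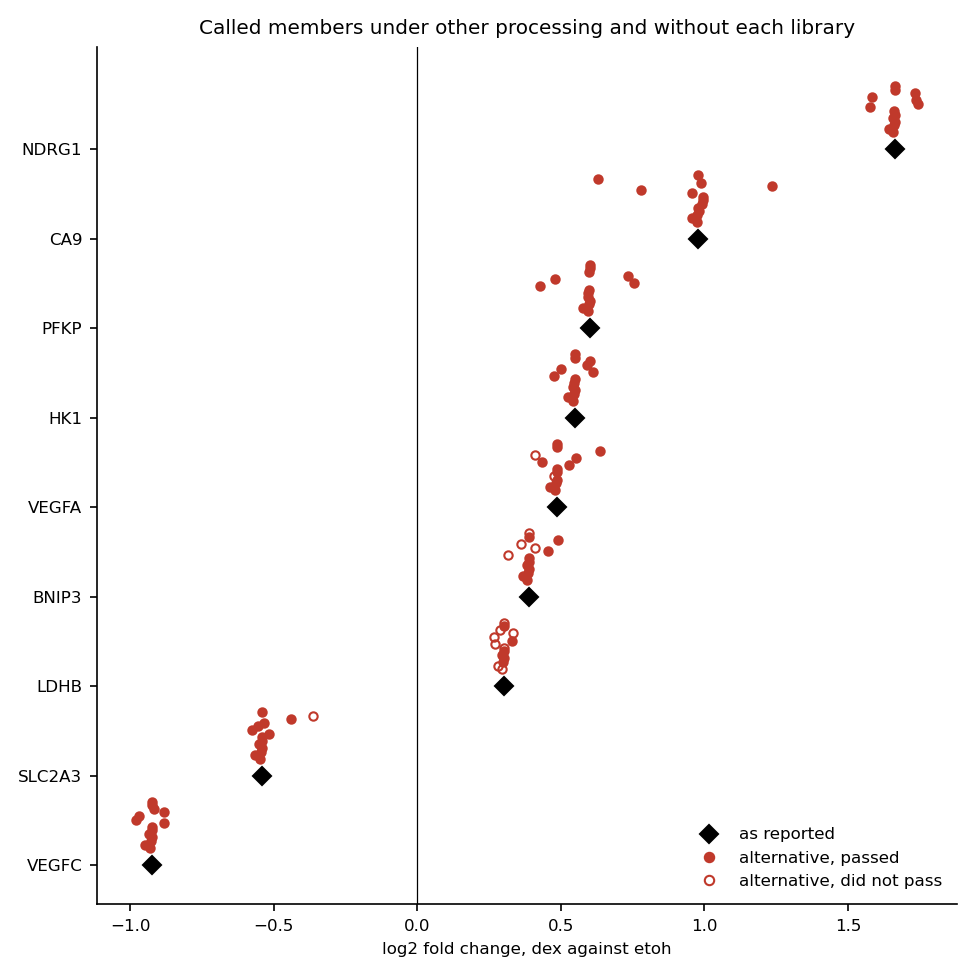
Log2 fold change of the 9 called genes as reported (diamond) and under 14 other treatments of the counts (points, filled where the gene still passed). The points of NDRG1, CA9, PFKP, HK1 and VEGFC are all filled, and those of LDHB lie between 0.27 and 0.33 with 8 open.

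Levels per transcript length show which members supply the RNA of each step. In etoh the highest were GAPDH at 8012 ± 486 TPM, LDHA at 3602 ± 102 TPM, PKM at 2327 ± 115 TPM, LDHB at 2125 ± 93.5 TPM and ENO1 at 1976 ± 92.7 TPM. PKM and LDHB lay within 2 SD of each other, as did LDHB and ENO1. HK2 was the lowest of the 37, at 0.796 TPM. Summed by role, lower glycolysis held 13457 ± 641 TPM in etoh and 13417 ± 191 TPM in dex. GAPDH is the largest part of that sum and shares sequence with RP5-940J5.9, listed on the opposite strand. RP5-940J5.9 is outside the sum and had 10058 ± 35.7 TPM in etoh and 7087 ± 1670 TPM in dex. The level of GAPDH and the sum therefore depend on how the aligner placed reads between these genes, which was not tested. The lactate dehydrogenases summed to 5727 ± 8.34 TPM in etoh and 6719 ± 174 TPM in dex, and upper glycolysis stood at 2332 ± 1.54 and 2427 ± 154 TPM. The hydroxylases summed to 112 ± 7.52 and 134 ± 9.91 TPM and the HIF alpha subunits to 545 ± 15.4 and 481 ± 8.29 TPM. These sums were not tested.

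**Figure D4:**
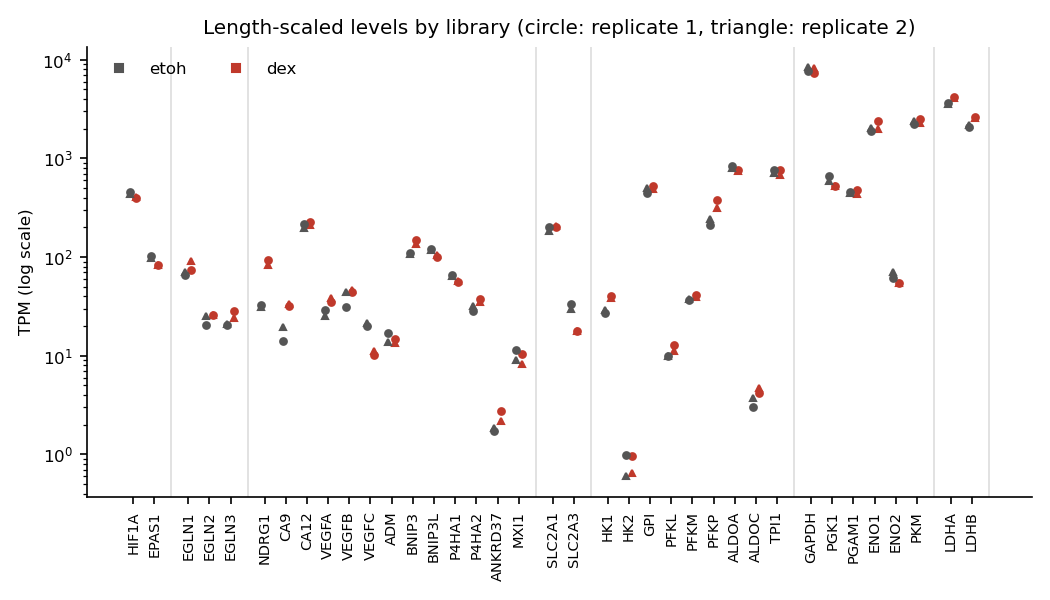
TPM of each of the 37 genes in each library, on a log axis, grouped by role. Levels run from GAPDH near the top at 8012 TPM in etoh to HK2 at 0.796 TPM, and the spread between genes is far wider than the distance between the groups.

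Within families, the called gene changed its share of the family's TPM by differing amounts. VEGFC made up 24.4% ± 1.10 of VEGFA, VEGFB and VEGFC in etoh and 11.5% ± 0.216 in dex. BNIP3 went from 47.9% ± 0.399 to 58.0% ± 2.19 of BNIP3 and BNIP3L, so that the order of the pair turned over on the TPM scale. In CPM BNIP3 stayed below BNIP3L in all 4 libraries. CA9 held 7.53% ± 1.98 and then 12.9% ± 0.849 of the pair with CA12. SLC2A3 held 14.1% ± 0.446 and then 8.04% ± 0.0537 of the pair with SLC2A1. PFKP was already the main phosphofructokinase, at 82.7% ± 1.22 in etoh and 86.7% ± 1.04 in dex, and HK1 made up 97.2% ± 1.09 and 98.0% ± 0.456 of HK1 and HK2 together, a difference smaller than the spread in etoh. HKDC1, a further hexokinase gene outside the 37, had 44.4 ± 1.15 CPM in etoh and 35.05 ± 0.940 CPM in dex (log2 fold change -0.32, SE 0.12, edgeR adjusted p = 0.083) and is not in that share. LDHB held 37.1% ± 1.69 and 38.5% ± 0.0905, a difference smaller than the spread in etoh. With 1 library left out, the difference ran from 0.159 points without etoh replicate 1 to 2.55 points without etoh replicate 2 for LDHB, and from 0.0221 to 1.57 points without the same libraries for HK1.

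At the level of transcripts, 276 are listed for the 37 genes and 201 were tested, of which 20 were higher and 4 lower. Among all 49857 transcripts tested 5.64% were called, 3.57% higher and 2.07% lower. The 20 lie in 7 genes: 8 in NDRG1, 5 in PFKP, 3 in LDHB and 1 each in CA9, VEGFA, BNIP3 and HK1. The 4 are the only transcript of VEGFC, 2 of 3 of SLC2A3 and the PGK1 transcript above. Reads shared by transcripts of a gene are placed by the aligner, so the transcripts are not independent. Without dex replicate 1 the number higher was 9, and without etoh replicate 1 it was 10. Lower were 1, 1 and 2 without dex replicate 1, etoh replicate 1 and dex replicate 2.

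The surrounding pathways were read from 4 lists of other genes, 116 of them tested, of which 17 rose and 5 fell. That is 19.0% called, against 11.5% of all genes tested (7.12% higher and 4.34% lower). By list the share was 10.5% (2 of 19) for HIF partners and regulators, close to that of all genes. For other glycolysis genes it was 5.71%, a small count of 2 of 35. It was 35.9% for other hypoxia-responsive genes and 17.4% for pentose phosphate and glycogen genes. Among the partners and regulators of HIF, 2 of 19 rose: CITED2, which limits HIF activity by competing for its coactivators, from 9.45 ± 0.396 to 17.1 ± 1.39 CPM (log2 fold change 0.88, SE 0.17, edgeR adjusted p = 9.2e-04), and TCEB1, the elongin C subunit of the VHL ligase, from 135 ± 6.5 to 182 ± 5.86 CPM (0.45, SE 0.10). The other 17, ARNT among them (log2 fold change -0.04), did not pass, and the median of the list was -0.01.

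Of 39 other hypoxia-responsive genes, 9 rose and 5 fell, with a median log2 fold change of 0.02. The largest rise was in ANGPTL4, a secreted inhibitor of lipoprotein lipase, with 2.66 and 4.79 CPM in etoh and 75.0 and 79.0 CPM in dex (log2 fold change 4.36, SE 0.17). NOL3, an inhibitor of apoptosis, went from 4.91 ± 0.158 to 17.8 ± 1.53 CPM (1.88), and DDIT4, an inhibitor of mTORC1, from 77.3 ± 4.71 to 131 ± 8.34 CPM (0.78). Lower were IGFBP3, which binds insulin-like growth factors, from 349 ± 44.8 to 183 ± 2.21 CPM (-0.91) and the transcription factor BHLHE40 from 129 ± 2.17 to 70.9 ± 1.81 CPM (-0.84). These 5 were named for their small p-values, and several are known as glucocorticoid-responsive genes as well. The list thus moved in both directions, as the genes described here did. With DESeq2, without dex replicate 1 or without etoh replicate 1, 5 of the 39 rose.

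Among 35 other genes of glycolysis, pyruvate and lactate metabolism 2 rose, none fell, and the median was 0.07. Both act on the pyruvate dehydrogenase complex, in opposite senses. PDK4, a kinase that switches the complex off, had 39.1 and 34.2 CPM in etoh and 108 and 126 CPM in dex (log2 fold change 1.70, SE 0.12). PDP1, a phosphatase that switches it on, went from 14.9 ± 0.236 to 23.9 ± 3.62 CPM (0.71, SE 0.15).

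Of 23 pentose phosphate and glycogen genes 4 rose and none fell, with a median of 0.20. PYGB, the brain form of glycogen phosphorylase, had 112 and 123 CPM in etoh and 439.6 and 373 CPM in dex (log2 fold change 1.82, SE 0.11). PYGL, the liver form, went from 215 ± 8.12 to 264 ± 8.57 CPM (0.32) and PHKA1, a subunit of phosphorylase kinase, from 91.0 ± 2.67 to 118 ± 2.03 CPM (0.40), so 3 of the 4 belong to glycogen breakdown. PGD, the second dehydrogenase of the pentose phosphate pathway, went from 1107 ± 83.4 to 1487 ± 224 CPM (0.45). The number that rose was 1 without dex replicate 1 and 2 without etoh replicate 1, and 7 without dex replicate 2 or etoh replicate 2, when 1 gene fell as well.

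**Figure D5:**
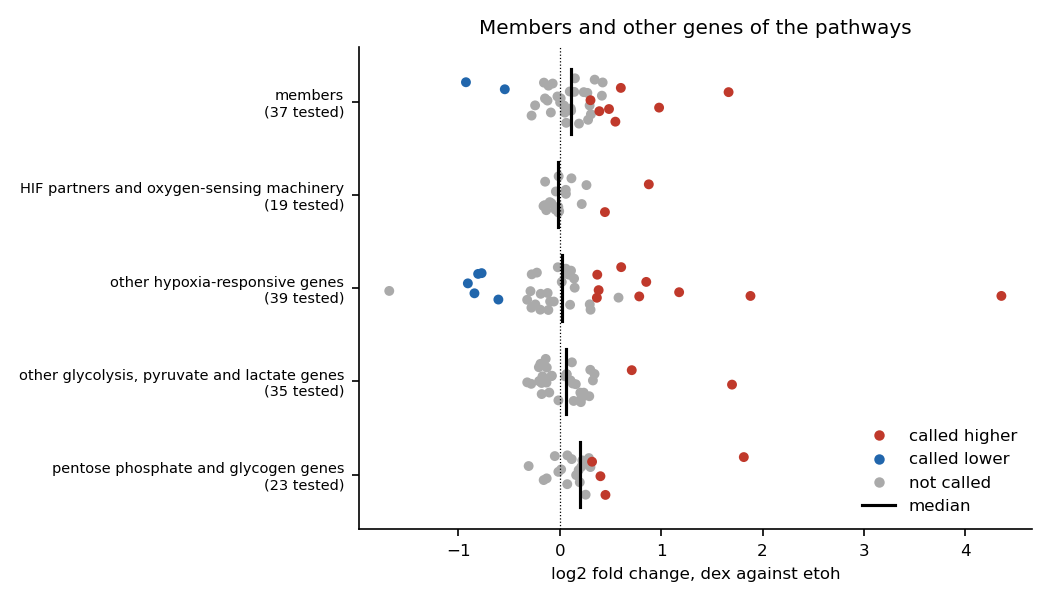
Log2 fold change of the 37 genes (members) and of the 4 lists of other pathway genes, dex against etoh, with the median of each list as a bar. The medians lie between -0.01 and 0.20, and the called genes of the hypoxia list fall on both sides of 0.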

How the data were processed

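RNA-seq was deposited for A549 cells, 2 dex and 2 etoh libraries. Per the labels' protocols, mRNA libraries were made from column-purified total RNA. The authors deposited raw read counts per transcript, over 119207 transcripts. The submitters' processing notes name Bowtie, SAMtools, CASAVA and DESeq2. Versions, genome build, annotation release and strandedness were not given in the sources used here, so overlapping antisense genes and near-identical copies cannot be separated. The unnamed row of unaligned reads, 17.2% to 18.7% of reads, was left out.

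Counts were summed per symbol, and CPM is counts over the aligned total. Genes were kept by filterByExpr (minimum count 10), scaled by TMM and tested with edgeR 4.0.16 (R 4.3.3, prior count 0.125, group as the model term), checked on simulated data. The biological coefficient of variation was 8.07%. TPM used the listed transcript lengths. Libraries of a group were not duplicates: chi-square over degrees of freedom was 5.39 for the dex pair, 7.00 for the etoh pair and at least 15.3 for pairs of different groups. The floor of 3 reads reflects counting error only, as molecular identifiers are not mentioned. Shared sequence was counted as 50-base windows of GENCODE 29 transcripts, found for 92.5% of listed transcripts and none for VEGFC. Besides the genes given above, windows were shared in ANKRD37 (21.9%, with UFSP2 on the opposite strand) and GPI (11.7%, over 210 other genes). P4HA2 shared 10.1% with P4HA2-AS1 on the opposite strand. Gene positions are from GENCODE 29 on GRCh38, matched by gene identifier.

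The 37 genes and the pathway lists were chosen with earlier results of these data known. Every gene of the 37 is accounted for. Values in each library are given for genes called, genes whose call changed under an alternative and the most-read gene of each role, and pathway lists name at most the 6 called genes with the smallest p; 1 of these is not reported here. Alternatives were DESeq2 1.42.0 (size factors, and its test), limma 3.58.1 voom, library totals, no count filter, 1 CPM in 2 libraries, a replicate block, each library left out, 1 transcript per gene and an adjusted p of 0.01. A crossed pairing and sums with a gene of shared sequence were added after seeing the data. Not every alternative could change every gene. Among the called genes the sums changed the counts of CA9 and SLC2A3 only. CA9 and VEGFC have 1 listed transcript, so taking 1 transcript per gene left their counts as they were.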

Additional observations from a re-analysis of the deposited data

How the results depend on the processing

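Of the 9 called genes, NDRG1, CA9, VEGFC, HK1 and PFKP passed in all 14 alternatives, SLC2A3 in 13, VEGFA in 12, BNIP3 in 10 and LDHB in 6, and none of the 9 changed sign. Genes called higher and lower over the whole table numbered 652 and 386 with the DESeq2 test, 650 and 363 at an adjusted p of 0.01, and 699 to 1173 and 401 to 831 with 1 library left out (lowest without etoh replicate 1). Called pathway genes numbered 10 to 21 higher and 5 to 7 lower in those fits. Among transcripts of the 37 genes, 9 were higher and 1 lower with DESeq2, 12 and 1 at an adjusted p of 0.01, and 9 to 23 and 1 to 3 with 1 library left out. Of the 37 genes, 5 to 7 were higher and 2 lower in those fits.

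Replicate numbers do not pair the samples by label, and differences between replicates correlated across groups at r = -0.136 over 14716 genes. With a replicate block 986 genes were higher and 576 lower, and 8 of the 37 were called. The crossed pairing as a block, chosen after seeing the data, gave 1618 and 1201. Among the 37 it called 10 higher and 4 lower, and among pathway genes 24 higher and 13 lower. Summing with the gene of shared sequence, also added afterwards, left 7 of the 37 higher and 1 lower.

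Shares within families, in percentage points of dex minus etoh, moved with the processing but kept their sign: with unscaled reads VEGFC was -15.5, CA9 2.44, SLC2A3 -3.34 and PFKP 5.84, and with 1 transcript per gene VEGFC was -22.1, BNIP3 7.64, CA9 10.1, SLC2A3 -2.24 and HK1 2.82. With 1 library left out LDHB ran from 0.159 to 2.55 and HK1 from 0.0221 to 1.57. The cause was not tested.

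Of the log2 fold changes, 23 values in 8 genes changed sign, none of a called gene. With 1 library left out the ranges were HK2 -0.29 to 0.44, GPI -0.0058 to 0.19, PFKM -0.023 to 0.036, TPI1 -0.091 to 0.16, PGAM1 -0.041 to 0.13, MXI1 -0.19 to 0.14, GAPDH -0.064 to 0.063 and ADM -0.29 to 0.11. With 1 transcript per gene the values were ADM 0.34, MXI1 0.025, PFKM -0.18, TPI1 -0.011 and GAPDH -0.0027. Library totals gave PFKM -0.014 and GAPDH -0.019, DESeq2 size factors and the DESeq2 test each gave GAPDH -0.0036, and the sum with RP5-940J5.9 gave GAPDH -0.11. Depth limits ANKRD37 and HK2, with 42 and 98 reads in all. With 1 library left out, the lone sample of its group is assumed to vary like the other group.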

Other observations

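Relatives of the 37 genes were read after the values above were seen, so they describe these libraries only. Of 32 listed relatives 21 were tested, 3 were higher in dex and 1 lower, against 7.12% and 4.34% of all genes tested. The 3 come from a group of 6 tested genes read beside MXI1, namely MXD1, MXD3, MXD4, MNT, MAX and MLX. Not all of the 6 are MYC antagonists: MAX and MLX are not. MXD3 went from 61.7 ± 0.915 to 90.3 ± 18.6 CPM (log2 fold change 0.57, edgeR adjusted p = 0.0032). MXD4 had a log2 fold change of 0.60 (adjusted p = 0.011) and MLX 0.50 (adjusted p = 0.0081). MXI1 itself did not pass. CA2, a cytosolic carbonic anhydrase, was lower in dex, at 1.98 ± 0.0516 CPM in etoh and 0.703 ± 0.275 CPM in dex (edgeR adjusted p = 0.037, log2 fold change -1.44 with an SE of 0.44), while CA9 rose. None of NDRG2, NDRG3 and NDRG4 passed beside NDRG1, the nearest being NDRG4 at 0.52 (adjusted p = 0.070).

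RP5-940J5.9, listed on the strand opposite GAPDH, held 82600 reads in all and was lower in dex. It had 2224 and 2269.5 CPM in etoh and 1350.2 and 1853 CPM in dex (log2 fold change -0.47, SE 0.12, edgeR adjusted p = 0.0096). How the aligner placed reads between the 2 genes was not tested.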
